A study of Mus musculus with 6 samples.

Results

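The immunity-related GTPases (IRG proteins) are a family of interferon-inducible, dynamin-like GTP-binding proteins, and 10 of their genes were followed in adult mouse left ventricle. The genes were taken by symbol from the deposited gene counts: Irgm1, Irgm2, Igtp, Iigp1, Tgtp1, Tgtp2, Ifi47, Gm12250, Gm4841 and F830016B08Rik, 10 of the 43629 genes counted. All 10 were among the 13092 genes that passed the filter on low counts. The family was chosen by its counts in caffeine against vehicle hearts, the fitted fold changes of this same contrast, so those values are given as a description and support nothing further.

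The study asked whether exposure to caffeine in the womb leaves lasting changes in the heart. Pregnant CD-1 dams received injections into the peritoneum once a day, either of normal saline (the vehicle) or of caffeine at 20 mg/kg in that vehicle, from embryonic day 6.5 to 9.5; one field of the labels ends the exposure at day 10.5. Their male offspring were kept to 1 year of age, and poly(A) RNA of the left ventricle was sequenced in 3 vehicle hearts and 3 caffeine hearts. CD-1 is an outbred stock whose reads were mapped to a C57BL/6J reference, and genotype was not tested. The dam of each mouse is not given in the sources used here, so every test treats the hearts as independent.

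Total counts ran from 7613011 to 10483101 per heart, lowest in caffeine heart 1 (7613011), and 3 counts corresponded to 0.286 to 0.394 CPM (counts divided by library size after scaling with edgeR's TMM factors). The labelled tissue was checked against its markers. The 6 ventricular cardiomyocyte markers summed to between 44718 and 52988 CPM, while the atrial light chain Myl7 had at most 2 counts and atrial sarcolipin (Sln) at most 1 count in any heart. Of the other atrial markers, Myl4 had 5 to 18 counts, and Nppa, a natriuretic peptide gene that the adult ventricle can also express, measured 51.3 to 180.2 CPM in vehicle and 266.3 to 433.1 CPM in caffeine hearts. Nppa had a log2 fold change of 1.73 (SE 0.35, adjusted p = 0.125 by the quasi-likelihood test), and the exact test, the likelihood ratio test, the replicate block and the fit without a filter called it. In bulk tissue, fewer cells of a type and less RNA per cell cannot be told apart.

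IRG genes are induced by interferon-γ through GAS elements and ISRE elements in their promoters, the latter bound by IRF factors. Their proteins fall into regulators, named GMS proteins after a glycine-methionine-serine motif in the nucleotide-binding site, and effectors, named GKS proteins after the usual glycine-lysine-serine motif. The regulators sit on the cell's own membranes and hold the effectors in their inactive state, and the effectors gather on the vacuoles of parasites such as Toxoplasma and of some bacteria and break them open. The autophagy conjugation machinery helps direct them to the right membrane. Unstimulated tissue, the heart included, usually makes little of these proteins.

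The promoters are shown because they are the stretch of DNA through which interferon acts on these genes. RefSeq (GRCm38.p6) promoters were matched by symbol for 7 members, the 7 on chromosome 11, namely Irgm1, Irgm2, Igtp, Tgtp1, Tgtp2, Ifi47 and Gm12250. The 250 bases before each annotated start were searched on both strands for the ISRE core (GAAA, any 2 bases, GAAA) and for the GAS element (TTC, any 3 bases, GAA). An ISRE core was found in 6 of the 7, against 2.98% of all 32851 promoters, and a GAS element in 5 of the 7, against 7.02%. Both were found in 5 of the 7, against 0.332% of promoters. Ifi47 held neither motif, and Irgm1 held 2 overlapping ISRE cores and no GAS element. Printed here, 5′ to 3′, are the last 110 bases before the start of 4 members, with motif matches in capitals. The regions are chr11:58199446-58199555 (plus strand) for Igtp, chr11:58214867-58214976 (plus strand) for Irgm2, chr11:49064213-49064322 (minus strand) for Tgtp2 and chr11:58183733-58183842 (plus strand) for Gm12250. The RefSeq start of Igtp coincides with a GENCODE transcript start, and those of Irgm2, Tgtp2 and Gm12250 do not.
Igtp: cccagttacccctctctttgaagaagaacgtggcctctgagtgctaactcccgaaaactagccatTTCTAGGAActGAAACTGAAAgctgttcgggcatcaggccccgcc
Irgm2: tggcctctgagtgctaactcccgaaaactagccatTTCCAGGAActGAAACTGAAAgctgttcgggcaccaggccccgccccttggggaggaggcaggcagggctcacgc
Tgtp2: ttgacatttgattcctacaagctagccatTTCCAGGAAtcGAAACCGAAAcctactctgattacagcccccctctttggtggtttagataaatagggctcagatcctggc
Gm12250: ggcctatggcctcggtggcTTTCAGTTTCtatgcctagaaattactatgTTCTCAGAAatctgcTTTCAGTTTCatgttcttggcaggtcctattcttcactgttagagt

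In Igtp, Irgm2 and Tgtp2 the GAS element stood 2 bases before the ISRE core, whereas in Gm12250 a GAS element lay between 2 ISRE cores on the other strand. The joined arrangement, a GAS element, any 2 bases and an ISRE core on one strand, was looked for after these sequences had been seen. It occurred in 5 of the 32851 promoters (0.0152%), and these belonged to Igtp, Irgm2, Tgtp1, Tgtp2 and Gm12185, a further IRG-type locus next to Tgtp1. Gm12185 itself had 0, 0 and 6 counts in vehicle hearts 1 to 3 and 9, 5 and 7 counts in caffeine hearts 1 to 3. None of the 5 guanylate-binding protein promoters held the joined form, although an ISRE core was found in 5 of these 5. Around the match the stretches of Igtp and Irgm2 are nearly the same, and Tgtp1 and Tgtp2 are near-identical copies. Their matches, here and in the shares above, are therefore not independent occurrences. A match describes letters only and is no evidence that a factor was bound.

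The genes lie in 3 blocks of the genome (GRCm38, GENCODE M21). Irgm1, Tgtp1, Tgtp2 and Ifi47 span chr11:48861968-49096974, and Gm12250, Igtp and Irgm2 span chr11:58187739-58222782. Iigp1, Gm4841 and F830016B08Rik span chr18:60268305-60392634. Several members cannot be fully told apart by single 75-base reads. Of all 75-base windows of Tgtp1 transcripts, 77.2% also occurred in transcripts of another gene, and 81.4% did for Tgtp2, whose shared windows were with Tgtp1. Igtp and Irgm2 had 162 exon bases in common at the start of both genes, Tgtp1 overlapped Gm12185 by 223 exon bases, and Ifi47 overlapped Gm12188 and Olfr56 by 217. How the counting treated such reads, and whether it used strand, is not given in the sources used here. The split between Tgtp1 and Tgtp2 is therefore uncertain, and so are their levels, since shared reads may have been left out.

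The family was highest in 1 caffeine heart, intermediate in another and at vehicle levels in the remaining one. The summed level of the 10 genes was 106.9, 57.8 and 63.3 CPM in vehicle hearts 1, 2 and 3, and 258.7, 69.6 and 121.5 CPM in caffeine hearts 1, 2 and 3. Caffeine heart 2 lay within the vehicle range, so the groups overlapped. The group means were 76.0 ± 26.9 CPM for vehicle and 149.9 ± 97.7 CPM for caffeine (SD, n = 3 each), a ratio of 1.97. This ratio was 1.26 without caffeine heart 1 and 2.50 without caffeine heart 2. With both number 1 hearts left out, an alternative chosen after seeing the data, it was 1.58.

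**Figure D1:**
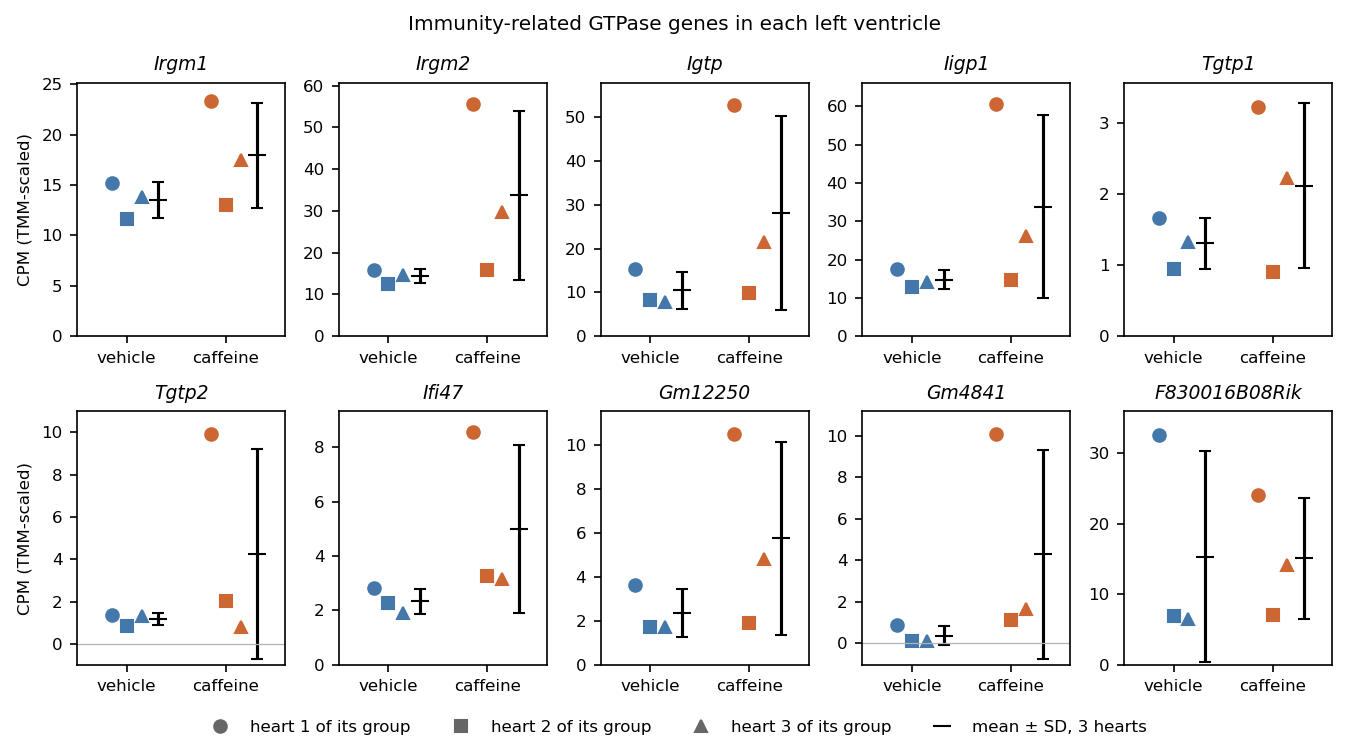
TMM-scaled CPM of each of the 10 genes (y axis, linear, one scale per gene) in the 3 vehicle hearts (blue) and the 3 caffeine hearts (orange), with symbols for heart 1, 2 and 3 of each group and bars for the mean ± SD. Caffeine heart 1 is the highest point in 9 of the 10 panels, and in F830016B08Rik the highest point is vehicle heart 1 at 32.6 CPM.

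In the edgeR quasi-likelihood fit over all 13092 genes, 0 of the 10 members were called at an adjusted p below 0.05 and a fold above 1.5, where 14 genes (0.107%) were called in all. At an unadjusted p below 0.05 there were 7 members, against 8.82% of all genes. Limma-voom and DESeq2 also called 0 members (0.107% and 0.512% of all genes). The edgeR exact test and likelihood ratio test each called 2, Irgm2 and Gm4841 (0.718% and 0.771% of all genes). A quasi-likelihood fit with the replicate number as a block called 1, Gm4841 (0.306% of all genes). A fit without the filter on low counts called 7 (1.07% of 22407 genes). These 7 were Igtp, Irgm2, Iigp1, Ifi47, Tgtp2, Gm12250 and Gm4841. The study's own edgeR analysis also listed each of them as differentially expressed. Whether it filtered low counts is not given in the sources used here. The fitted log2 fold change was above 0 for 9 of 10 members, against 50.2% of all genes, with a median of 1.20 for the members and 0.00 for all genes tested. Without caffeine heart 1 the median of the members was 0.46, and without both number 1 hearts 0.63. Because this contrast chose the family, nothing is read from these shares.

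Among the regulators, Irgm1, which is linked to autophagy and to mitochondrial and lysosomal membranes, varied least. It measured 15.2, 11.6 and 13.8 CPM in vehicle hearts 1 to 3 and 23.4, 13.0 and 17.5 CPM in caffeine hearts 1 to 3. Caffeine hearts 1 and 3 were above every vehicle heart and caffeine heart 2 was among them. Its log2 fold change, caffeine minus vehicle, was 0.40 (SE 0.20, adjusted p = 0.619), and it was 0.17 without caffeine heart 1.

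Irgm2, a regulator found at the Golgi apparatus, measured 15.9, 12.5 and 14.7 CPM in vehicle hearts and 55.7, 15.8 and 29.7 CPM in caffeine hearts. The vehicle hearts lay close together, caffeine heart 2 was just inside their range, and caffeine heart 1 was 3.88 times the vehicle mean. The log2 fold change was 1.22 (SE 0.35, adjusted p = 0.289), and 0.66 without caffeine heart 1. Irgm2 passed the threshold in the edgeR exact test (adjusted p = 0.0499) and also when caffeine heart 2 was left out of the quasi-likelihood fit.

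Igtp, also called Irgm3, is a regulator of the endoplasmic reticulum and lipid droplets. It measured 15.3, 8.23 and 7.80 CPM in vehicle hearts and 52.8, 9.93 and 21.5 CPM in caffeine hearts. Vehicle heart 1 was 1.91 times the mean of the other two vehicle hearts and exceeded caffeine heart 2, so the groups overlapped. The log2 fold change was 1.40 (SE 0.49, adjusted p = 0.399), and 0.58 without caffeine heart 1. The 3 regulators together summed to 38.4 ± 7.30 CPM in vehicle and 79.7 ± 47.6 CPM in caffeine hearts (SD, n = 3 each), with 131.9 CPM in caffeine heart 1 and 38.7 CPM in caffeine heart 2.

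Among the effectors, Iigp1 (Irga6), the GTPase best known for coating the Toxoplasma vacuole, measured 17.4, 12.7 and 14.2 CPM in vehicle hearts. In caffeine hearts it measured 60.5, 14.6 and 26.2 CPM. The caffeine hearts again ran in the order 1, 3, 2, with heart 2 inside the vehicle range. The log2 fold change was 1.18 (SE 0.40, adjusted p = 0.375), and 0.46 without caffeine heart 1.

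Tgtp1 and Tgtp2 are near-identical copies that encode Irgb6, an early arrival at parasite vacuoles. Tgtp1 had 17, 10 and 13 counts in vehicle hearts and 23, 8 and 19 counts in caffeine hearts. Tgtp2 had 14, 9 and 13 counts in vehicle hearts and 71, 18 and 7 counts in caffeine hearts. The copies thus placed caffeine hearts 2 and 3 in opposite order, and both were highest in caffeine heart 1. Their log2 fold changes were 0.66 (SE 0.44, adjusted p = 0.727) and 1.80 (SE 0.73, adjusted p = 0.512), and without caffeine heart 1 they were 0.25 and 0.28. Summed, which removes the uncertain split, the pair measured 3.03, 1.80 and 2.63 CPM in vehicle hearts and 13.2, 2.93 and 3.05 CPM in caffeine hearts. In the sum, caffeine heart 1 stood apart and caffeine hearts 2 and 3 lay close to the highest vehicle heart, with a log2 fold change of 1.32 (SE 0.54, adjusted p = 0.512).

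Ifi47 (Irgd) was the only member with a searched promoter that held neither motif. Ifi47 measured 2.83, 2.27 and 1.92 CPM in vehicle hearts and 8.54, 3.27 and 3.17 CPM in caffeine hearts. Each caffeine heart was above each vehicle heart, and in the tested genes this was so for 7.11%. Only Ifi47 and Gm4841 of the 10 members had such separated groups. The log2 fold change of Ifi47 was 1.06 (SE 0.39, adjusted p = 0.437), and 0.46 without caffeine heart 1.

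Gm12250 (Irgb10), an effector that works with guanylate-binding proteins on bacteria in the cytosol, is a processed pseudogene in the GENCODE annotation and protein coding in RefSeq. It measured 3.61, 1.70 and 1.72 CPM in vehicle hearts and 10.5, 1.92 and 4.81 CPM in caffeine hearts. Vehicle heart 1 exceeded caffeine heart 2. The log2 fold change was 1.26 (SE 0.53, adjusted p = 0.534), and 0.51 without caffeine heart 1.

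Gm4841 and F830016B08Rik are less studied relatives of Iigp1 on the same chromosome. Gm4841 had 9, 1 and 1 counts in vehicle hearts, with vehicle hearts 2 and 3 under the floor of 3 counts, and 72, 10 and 14 counts in caffeine hearts. All caffeine hearts were above all vehicle hearts, caffeine heart 2 by 1 count above vehicle heart 1. The log2 fold change was 3.48 (SE 0.96, adjusted p = 0.273), the largest of the family. It was 1.91 without caffeine heart 1 and 5.21 without vehicle heart 1.

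F830016B08Rik was the exception among the 10. It measured 32.6, 6.91 and 6.48 CPM in vehicle hearts and 24.1, 7.11 and 14.1 CPM in caffeine hearts. Vehicle heart 1 was the highest of all 6 hearts and 4.87 times the mean of the other two vehicle hearts. Its log2 fold change was -0.04 (SE 0.58, adjusted p = 0.991). Leaving out vehicle heart 1 turned the value to 1.15, and leaving out both number 1 hearts gave 0.66. In vehicle hearts F830016B08Rik made up 20.2% of the family's mean CPM and in caffeine hearts 10.1%.

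**Figure D2:**
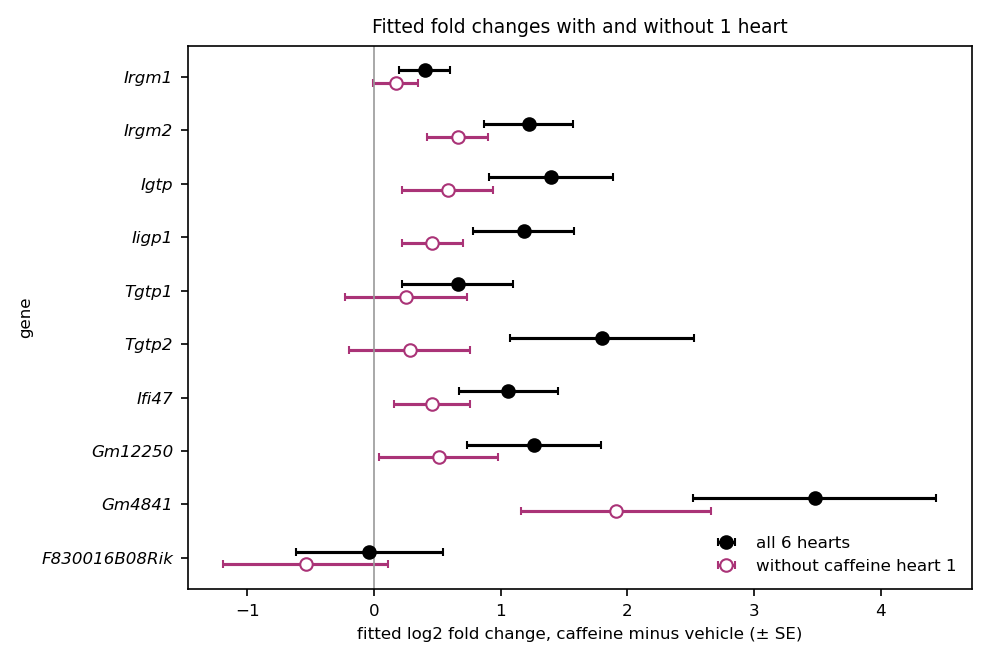
Fitted log2 fold change, caffeine minus vehicle, for each gene (x axis, bars are ± SE) from all 6 hearts (filled) and without caffeine heart 1 (open). The open point lies to the left of the filled one in 10 of 10 genes, for example 0.28 against 1.80 for Tgtp2.

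The order of the hearts recurred from gene to gene. The fold changes that chose the family rest largely on caffeine heart 1, so its high place is not independent of that choice. Nothing is read from the shares given here. Caffeine heart 1 was highest of the 6 hearts for 9 of 10 members, against 20.0% of all genes tested. The order caffeine 1, caffeine 3, caffeine 2 held in 8 of 10 members (18.6% of genes), the exceptions being Tgtp2 and Ifi47. Vehicle heart 1 was the highest vehicle heart in 10 of 10 members (36.2% of genes). Caffeine heart 2 lay within the vehicle range for 6 members, above it for 3 and below it for 1, Tgtp1. Caffeine heart 1 reached between 1.57 times the vehicle mean, for F830016B08Rik, and 8.43 times, for Tgtp2, leaving out Gm4841 with its few vehicle counts.

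**Figure D3:**
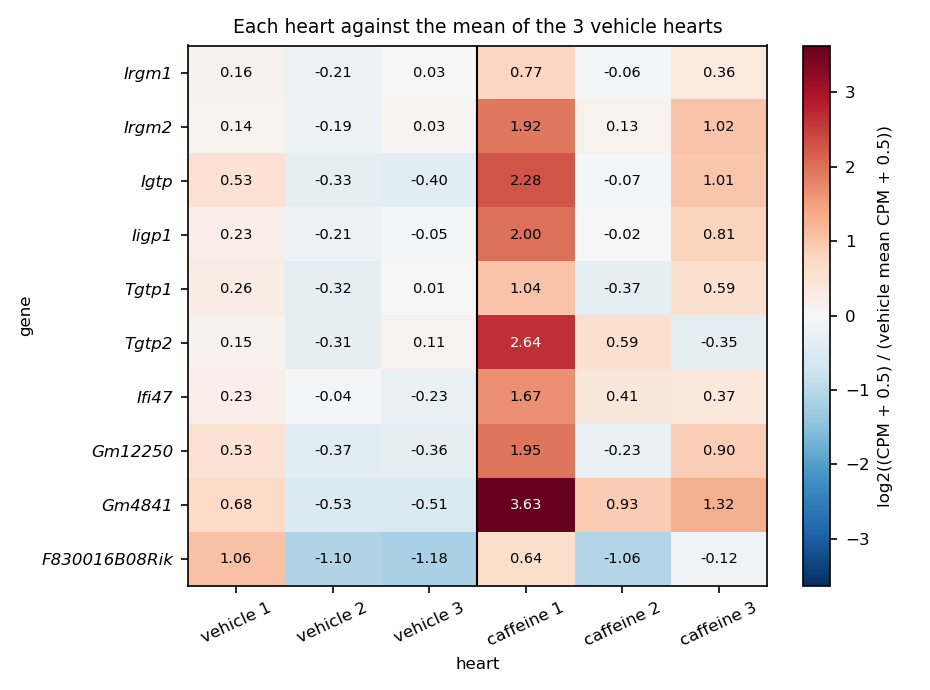
Log2 ratio of each heart's CPM to the mean of the 3 vehicle hearts, after adding 0.5 CPM to both, for the 10 genes (rows) in the 6 hearts (columns, vehicle left of the line). The column of caffeine heart 1 runs from 0.64 to 3.63, that of caffeine heart 2 from -1.06 to 0.93, and that of caffeine heart 3 from -0.35 to 1.32.

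Hearts of one treatment also differed in the same order in many members. These differences are not independent of the choice of the family, since caffeine heart 1, on which the fold changes largely rest, also enters them. With each group's mean removed, the median Pearson r between pairs of members was 0.88 over 45 pairs and 6 hearts. It exceeded 0.8 in 30 pairs and was below 0 in none. Among pairs from a fixed, evenly spaced subset of 1310 tested genes, the median was 0.00 and 5.50% exceeded 0.8. All these values share the same 6 libraries and their depths, and only 4 degrees of freedom remain. Tgtp2 had the lowest median r with the other members, 0.65, followed by F830016B08Rik with 0.76, and Igtp and Irgm1 the highest with 0.95. Without caffeine heart 1 the median over pairs was 0.74.

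The spread between hearts was also described gene by gene. The biological coefficient of variation, edgeR's measure of the relative spread between replicates, had a median of 35.9% for the members and 11.7% for all genes tested. It was smallest for Irgm1 at 16.4% and largest for Gm4841 at 65.3%. At most 23.4% of genes, in the case of Irgm1, had a larger value than a member. The members and all genes were not matched for level in this comparison.

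Levels between genes were compared as CPM per kilobase of exon. Ordered by the mean log2 level over the 6 hearts, Igtp came first at 9.52 ± 8.52 CPM per kb (SD, n = 6), followed by Irgm2 at 6.52 ± 4.52 and F830016B08Rik at 4.61 ± 3.31. Iigp1 at 4.16 ± 3.16, Gm12250 at 3.17 ± 2.67 and Irgm1 at 2.71 ± 0.730 CPM per kb formed the middle. Ifi47 at 1.48 ± 0.988, Tgtp2 at 0.926 ± 1.21, Tgtp1 at 0.534 ± 0.277 and Gm4841 at 0.817 ± 1.36 CPM per kb were lowest. Igtp stood above 70.8% of 13045 tested genes with a length on this scale, and Tgtp1 above 8.91%. If reads shared between Tgtp1 and Tgtp2 were left out of the counts, the levels of both are too low by an unknown amount. Their low places in the order are therefore uncertain.

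No neighbours in that order were told apart by the test. In an exact two-sided sign-flip permutation test of the differences within hearts, 0 of 9 neighbouring pairs passed an adjusted p of 0.05. Iigp1 was above Gm12250, Irgm1 above Ifi47 and Ifi47 above Tgtp2 in 6 of 6 hearts, each with an exact p = 0.0312, the smallest that 6 hearts allow, and an adjusted p = 0.0938. F830016B08Rik and Iigp1 had the reverse order in 5 of 6 hearts, with F830016B08Rik higher in vehicle heart 1 alone. Using the longest transcript as the length, Igtp remained first and Iigp1 came second, and without division by length Irgm2 came first.

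**Figure D4:**
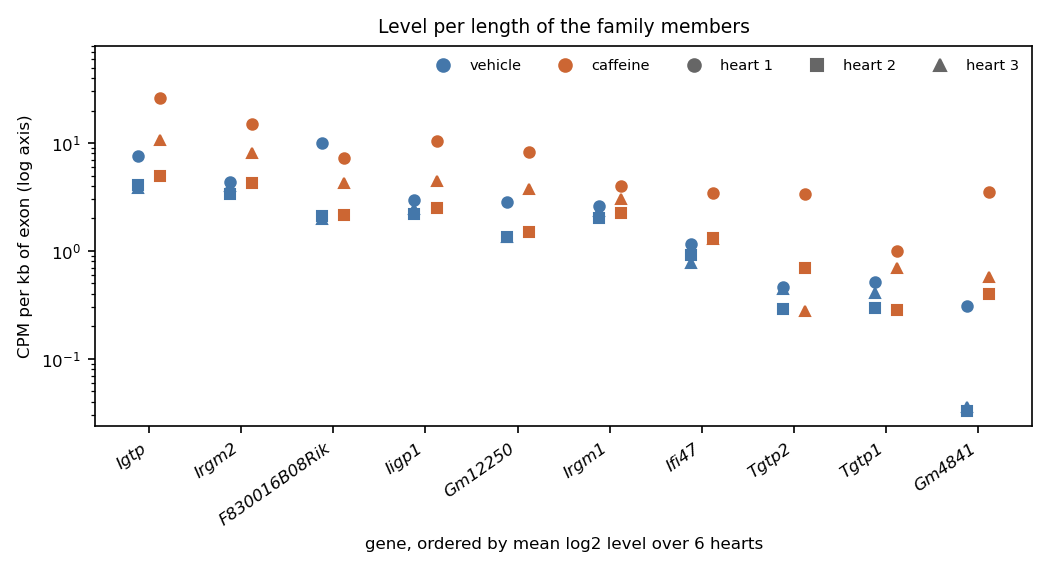
CPM per kb of exon (y axis, log scale) of the 10 genes in order of mean log2 level, one point per heart, with vehicle in blue and caffeine in orange and symbols for hearts 1, 2 and 3. Neighbouring genes overlap across hearts. Igtp spans 3.86 to 26.1 CPM per kb and Gm4841 0.0333 to 3.55.

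Most other genes near the 3 blocks showed smaller differences. Within 250 kb of the blocks, 11, 9 and 5 other genes were tested, for the proximal chromosome 11, the distal chromosome 11 and the chromosome 18 block. Their median log2 fold changes were -0.04, 0.03 and 0.10, and 0 of these genes were called by edgeR's quasi-likelihood test, or by its exact or likelihood ratio test, DESeq2 or limma-voom. At an unadjusted p below 0.05 there were 1, 0 and 1, against 8.82% of all genes. The fit without the filter on low counts called BC023105 (1.07% of 22407 genes). BC023105, an IRG-type locus beside Gm4841, had 24, 5 and 2 counts in vehicle hearts and 82, 12 and 9 counts in caffeine hearts. It showed the same high caffeine heart 1 and high vehicle heart 1 as its neighbours, with a log2 fold change of 2.13 (SE 0.94, adjusted p = 0.557), and 0.25 without caffeine heart 1. Of 10 further IRG-type loci 3 were tested, and Irgq, a distant family member without known induction by interferon, measured 32.1, 41.1 and 37.8 CPM in vehicle and 29.1, 33.7 and 30.4 CPM in caffeine hearts.

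In 5 lists of related pathways, 0 genes were called in either direction by the edgeR quasi-likelihood test, by DESeq2 or by limma-voom. Of all genes, these called 0.107%, 0.512% and 0.107%. The exact test called H2-Eb1 and Ifi44 (0.718% of all genes), and the likelihood ratio test called these and H2-Aa (0.771%). The replicate block called H2-Eb1 (0.306% of all genes). The fit without a filter called Gbp3, Gbp7, H2-Aa, H2-Ab1, H2-Eb1, Psmb9, Irf7 and Xaf1 (1.07% of 22407 genes). Of 15 tested genes of interferon-γ signalling, 4 had an unadjusted p below 0.05, against 8.82% of all genes. The median log2 fold change of the 15 was 0.33 (0.19 without caffeine heart 1). The ligand Ifng had 1 count in all 6 hearts together. The receptor subunits Ifngr1 and Ifngr2 had log2 fold changes of 0.01 (SE 0.11) and 0.11 (SE 0.1). The kinases Jak1 and Jak2 had 0.17 (SE 0.09) and 0.06 (SE 0.14). Stat2 had 0.38 (SE 0.19), Irf2 0.03 (SE 0.16) and Irf8 -0.02 (SE 0.22). The transcription factor Irf9 had 0.51 (SE 0.21, adjusted p = 0.536 by the quasi-likelihood test). It measured 11.5, 11.3 and 11.3 CPM in vehicle hearts and 22.4, 11.2 and 15.5 CPM in caffeine hearts. Irf1, a transcription factor that binds the ISRE, was highest in caffeine heart 1 at 27.4 CPM, and the other 5 hearts lay between 17.4 and 19.8 CPM.

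Guanylate-binding proteins, the large GTPases that act beside the IRG proteins, shared the high caffeine heart 1. All 6 tested members of the 8 in the files were highest in caffeine heart 1, against 20.0% of all genes tested. At an unadjusted p below 0.05 there were 3, against 8.82% of all genes. Gbp3 measured 6.64, 4.92 and 5.07 CPM in vehicle hearts and 19.9, 7.34 and 9.03 CPM in caffeine hearts. Each caffeine heart was above each vehicle heart, as in 7.11% of all genes. The log2 fold change of Gbp3 was 1.10 (SE 0.33, adjusted p = 0.319), and 0.56 without caffeine heart 1. It was the largest of the 6, whose median was 0.55 (0.26 without caffeine heart 1). Without that heart Gbp4 alone of the 6 changed sign, from 0.42 to -0.45. In the median over the list, caffeine hearts 1, 2 and 3 stood at 1.20, 0.04 and 0.44 on the log2 scale against the vehicle mean, beside 1.93, -0.04 and 0.70 for the IRG genes.

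Of 11 tested antigen presentation genes, 8 were highest in caffeine heart 1, against 20.0% of all genes. At an unadjusted p below 0.05 there were 6, against 8.82% of all genes. The median log2 fold change of the 11 was 0.54 (0.38 without caffeine heart 1). The class II chain H2-Eb1 measured 10.8, 1.61 and 4.96 CPM in vehicle and 47.2, 12.9 and 18.5 CPM in caffeine hearts. The class I chain H2-D1 was instead lowest in caffeine heart 1, at 161.7 CPM where the other hearts ran from 222.9 to 418.1 CPM. Of 14 tested type I interferon targets, 5 were highest in caffeine heart 1, against 20.0% of all genes. The median log2 fold change of the 14 was 0.46 with that heart and 0.44 without it. One of these targets, Ifi44, measured 1.56, 1.70 and 1.72 CPM in vehicle and 3.64, 3.27 and 3.75 CPM in caffeine hearts. Its caffeine hearts lay close together. All were above the vehicle hearts, as in 7.11% of all genes. The 10 genes of autophagy conjugation had a median log2 fold change of 0.02, and 0 had an unadjusted p below 0.05 (8.82% of all genes). No difference between these lists and the family was tested. The lists were chosen with earlier results of these data known, so nothing is read from these shares.

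**Figure D5:**
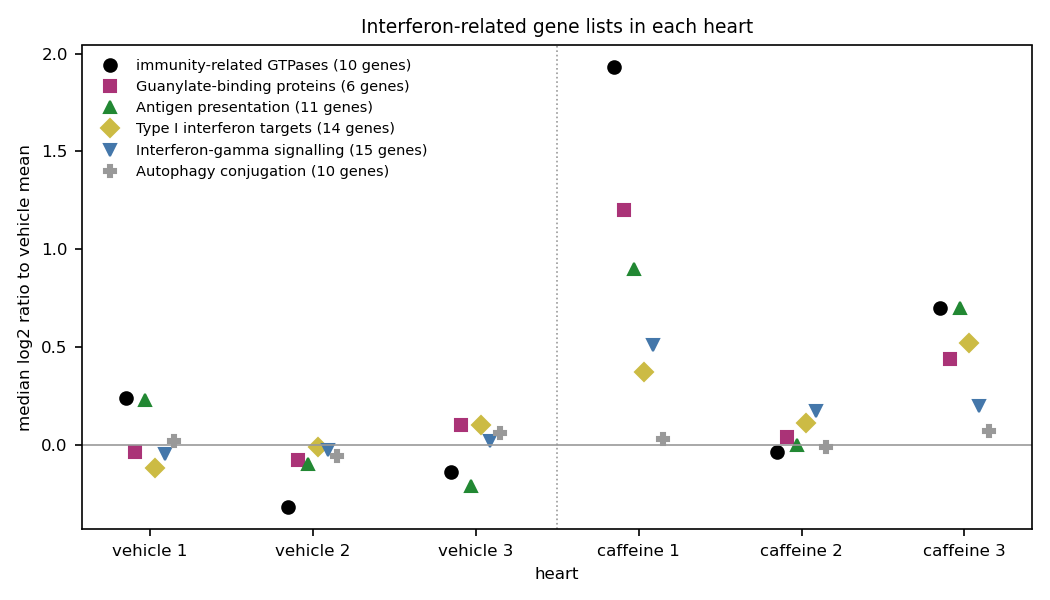
Median log2 ratio to the vehicle mean (y axis) over the tested genes of each list in each of the 6 hearts (x axis), with one symbol per list. The IRG genes and the guanylate-binding proteins reach 1.93 and 1.20 in caffeine heart 1 and -0.04 and 0.04 in caffeine heart 2, and the autophagy genes stay between -0.06 and 0.07.

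Genes most like the family were sought over all tested non-members, by Pearson r over the 6 hearts between log2 CPM and the mean centred log2 CPM of the 10 members. The 10 highest were Golph3l (0.994), Vcpkmt, Mafk, Aimp1, Ciita, Tmem258, Clns1a, Fermt3, Dtymk and Gbp3 (0.979). Ciita, the master activator of class II genes, measured 1.27, 0.662 and 0.709 CPM in vehicle and 2.80, 1.13 and 1.52 CPM in caffeine hearts. Golph3l moved far less, between 17.5 and 23.0 CPM. With 6 hearts, 626 non-members exceeded an r of 0.8, so the order among them is a description only. After removal of the group means the 10 highest were Lipe, Cdkn1a, Atp5k-ps2, Uqcr11, Med29, Gpihbp1, Myoc, Srsf5, Hdac5 and Slc2a4. The lists had 0 genes in common.

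Summed, the macrophage markers had the family's order of caffeine hearts but not its order of vehicle hearts. Singly, Cd68, Adgre1 and Csf1r were highest in caffeine heart 3. The 8 macrophage markers summed to 314.3, 353.7 and 232.5 CPM in vehicle hearts and 537.7, 271.9 and 414.9 CPM in caffeine hearts. Their log2 fold changes were above 0 in 8 of 8 (50.2% of all genes), and 5 of 8 were highest in caffeine heart 1 (20.0%). The quasi-likelihood test called 0 (0.107% of all genes), with 1 at an unadjusted p below 0.05 (8.82%). Adgre1 was called by the exact test (0.718%), the likelihood ratio test (0.771%) and the fit without a filter (1.07% of 22407 genes). None of the 8 was at 0 in any heart. The 10 T and NK cell markers summed to 1.89 to 2.43 CPM in vehicle and 3.05 to 4.34 CPM in caffeine hearts. None of these 10 was tested, their highest count was 12, and 4 were at 0 in at least 1 heart. The 6 B cell markers summed to 3.81 to 6.43 CPM in vehicle and 5.87 to 10.4 CPM in caffeine hearts, and 3 of them were at 0 in at least 1 heart. The 4 fibroblast markers summed to 666.0 to 767.4 CPM in vehicle and 811.5 to 954.9 CPM in caffeine hearts. These sums did not overlap, and the highest was in caffeine heart 1. Log2 fold changes were above 0 in 4 of 4 (50.2% of all genes), with 2 at an unadjusted p below 0.05 (8.82%). None of the 4 was called by any of the tools run. The 4 endothelial markers summed to 544.1 to 628.2 CPM in vehicle and 565.6 to 607.7 CPM in caffeine hearts. Caffeine heart 1 was also the library with the lowest total count. The part of immune cell and fibroblast content and of depth in the result was not tested.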

How the data were processed

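Single-end reads of 75 bases came from poly(A) libraries sequenced together in one run. According to their methods, the authors used FastQC for read cleaning, Tophat2 for mapping to mm10 and HTSeq for counting, with the annotation of Ensembl release 79. What they deposited is the raw count of each of 43629 genes in each sample, not normalized or pooled. No tool versions are given in the sources used here.

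Groups and replicate numbers came from the sample titles. Genes were filtered with filterByExpr (minimum count 10, minimum total 15), scaled by TMM and tested by quasi-likelihood (glmQLFit, then glmQLFTest) in edgeR 4.0.16 (R 4.3.3), with treatment the single term and Benjamini-Hochberg adjustment over all 13092 genes tested. The common coefficient of variation was 12.1%. A gene was called at an adjusted p below 0.05 and a fold above 1.5, the limits stated in the study's methods. The script was tested on simulated data with the common coefficient of variation for every gene. The members varied more (median 35.9%), so that test does not cover genes like them. Log2 CPM used a prior count of 2. Levels per length used the union of GENCODE M21 exons. Symbols came from the gene name table; 1167 identifiers had none, and Gbp5, Gbp6 and Gbp10 were not matched. The 37 mitochondrial genes had 0 counts.

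The genes named are all 10 members, the further IRG-type loci, list genes that are a ligand, receptor, transducer or transcription factor, and the 10 genes most alike. Gm12185, BC023105, Irgq, the marker genes named and the named genes of the guanylate-binding, antigen presentation and type I lists were singled out among listed genes after their values were seen. The values of 1 gene of the interferon-γ list are not reported here. The members and lists were chosen with earlier results of these data known. Alternatives were DESeq2 1.42.0, limma-voom (limma 3.58.1), the edgeR exact, likelihood ratio and robust tests, other scaling and filters, a replicate block and leaving out each heart. Replicates of a group differed beyond sampling noise (chi-square per degree of freedom 5.71 to 15.1), so no library was counted as a duplicate. Nothing says whether hearts of a group came from separate litters, so p-values measure the spread between these hearts.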

Additional observations from a re-analysis of the deposited data

How the results depend on the processing

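The number of members called was 0 in the edgeR quasi-likelihood fit and 2 with the exact test, 2 with the likelihood ratio test and 7 without the filter on low counts, where Igtp, Irgm2, Iigp1, Ifi47, Tgtp2, Gm12250 and Gm4841 passed. Leaving out one heart gave 0 to 1 members, the 1 being Irgm2 without caffeine heart 2. Over all genes, 14 were called (11 higher, 3 lower in caffeine), against 94 (61 and 33) with the exact test, 101 (63 and 38) with the likelihood ratio test, 67 (39 and 28) with DESeq2, 27 (12 and 15) with library size only and 240 (145 and 95) without the filter. Leaving out one heart gave 4 to 28, with 4 without vehicle heart 2 or caffeine heart 3, 8 without caffeine heart 1, 22 without caffeine heart 2, 27 without vehicle heart 1 and 28 without vehicle heart 3. The cause was not tested.

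F830016B08Rik, at -0.04, turned to 0.19 with limma-voom and to 0.66 without both number 1 hearts, and leaving out one heart gave -0.54 (without caffeine heart 1) to 1.15 (without vehicle heart 1), with 0.30 without caffeine heart 2. The fits without both number 1 hearts were added after seeing the data. Of the other 9 members, the sign did not change under any alternative run. Leaving out one heart moved the ratio of the summed levels between 1.26 and 2.50 and the median log2 fold change between 0.46 and 1.55, both lowest without caffeine heart 1.

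With a replicate block, 40 genes (29 and 11) and 1 member, Gm4841 (adjusted p = 0.0106), were called, and F830016B08Rik turned to 0.17. Same-numbered hearts had a mean correlation of -0.008 in their deviations from the group means (-0.038 to 0.045). In this measure 2 of 6 hearts correlated best with their own number. In the members, vehicle heart 1 was the highest vehicle heart in 10 of 10. Caffeine heart 1 was the highest of all hearts in 9 of 10. Each dam received either vehicle or caffeine, so same-numbered hearts of the groups came from different litters. Whether they shared a batch was not tested.

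With 3 hearts per group and a spread of 35.9% in the median member, and with counts of 1 to 23 for Gm4841, Tgtp1 and Tgtp2 in most hearts, depth and number of hearts limit the precision of single folds. Orders of levels without one heart cannot reach an exact p below 0.0625.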
